A study of Mus musculus with 4 samples.

Results

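Among sorted and activated splenic T cells, 96 of 19100 kept cells (0.503%) passed a rule on blood progenitor and T cell genes. A cell was kept with at least 2000 UMIs (unique molecular identifiers, each counting 1 captured RNA molecule), at least 500 detected genes and at most 10% mitochondrial UMIs. A kept cell was a member when Car1, Car2, Gata2 and Lmo2 together had 2 or more UMIs and Cd3e and Cd3g together had at most 1. The remaining 19004 kept cells are called other cells below. Among them, 77 also had 2 or more UMIs of Car1, Car2, Gata2 and Lmo2 but more than 1 of Cd3e and Cd3g. Since measured genes chose the members, every value of members against other cells is a description and carries no test.

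The study profiled spleen cells of C57BL6/J mice that were sorted for CD3 and CD4 at the surface and then kept for 6 hours with beads carrying antibodies to CD3 and CD28. Droplet sequencing with 3′ chemistry was done on 4 libraries: 1 female and 1 male labelled Irf5-/-, and 1 female and 1 male labelled WT, all stimulated alike. The labels used here give neither the age nor the number of mice in a library, nor a batch, so p-values measure only the spread between these libraries. Values of the 4 libraries are given below in the order female labelled Irf5-/-, female labelled WT, male labelled Irf5-/- and male labelled WT.

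In mice the spleen remains a blood-forming organ in adult life, and stress widens its erythroid output. Stem and progenitor cells depend on the transcription factor GATA2, and during red cell commitment GATA1 takes its place at many shared sites, in complexes with LMO2, TAL1 and LDB1. Carbonic anhydrases 1 and 2 hydrate carbon dioxide in erythroid cells, and the globin genes are switched on late, with heme synthesis and the band 3 anion exchanger Slc4a1.

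The GATA motif, searched as AGATAA on either strand in the 250 bases before the start site, stood in 8 of the 21 erythroid list genes with a RefSeq promoter entry (38.1%) and in 3090 of all 27025 genes with one (11.4%). It stood in 2 of 15 matched stem and progenitor genes, 2 of 30 matched G2/M genes and 0 of 9 matched T cell genes. In the globin list it stood in 1 of 6, that of Hbb-bs. A match describes letters only and shows no binding. Windows are printed for 3 genes that mark steps of red cell maturation described below, with the motif or its reverse complement in capitals, 5′ to 3′ on the gene's strand, from RefSeq on GRCm38.p6. Hbb-bs, an adult beta globin gene, holds it at chr7:103828106-103828165 on the minus strand. Alas2, the erythroid enzyme that starts heme synthesis, holds it at chrX:150547304-150547363 on the plus strand. Epor, the erythropoietin receptor, holds it at chr9:21963598-21963657 on the minus strand.
Hbb-bs: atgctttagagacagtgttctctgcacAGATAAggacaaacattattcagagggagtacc
Alas2: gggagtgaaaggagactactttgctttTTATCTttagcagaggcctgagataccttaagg
Epor: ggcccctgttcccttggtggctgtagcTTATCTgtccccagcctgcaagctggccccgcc

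Most members carried marker genes of erythroid and blood progenitor cells, but 28 of the 96 carried markers of T cells. Those 28 had 3 or more UMIs of Trac, Trbc1, Trbc2, Cd3d and Bcl11b, genes of the T cell receptor complex and the T lineage, called T receptor UMIs below (median 12). For 26 of the 28, Car2 was the only rule gene seen, and 27 of the 28 carried 3 or more UMIs of T cell activation genes. Among the 68 remaining members, 63 carried 3 or more UMIs of erythroid list genes outside the rule, against 15 of the 28 and 7744 of the 19004 other cells. For stem and progenitor list genes the counts were 63 of 68, 11 of 28 and 4925 of 19004. With every cell thinned to 2000 UMIs, 34.4% of all members and 4.33% of other cells carried the erythroid list, and 59.4% and 6.34% the stem list. With only the list genes under 5 CPM in other cells, a filter that fixes a low count there, 61 of 68 and 1 of 28 members carried the erythroid list, and 61 and 2 the stem list. The member of the 28 that still carried the erythroid list had 26 rule UMIs, with UMIs of Gata1, Klf1 and Kit. CPM is the UMIs of a gene per 1000000 UMIs of the same cells. This division was made after the cells were seen, and values are given below with and without the 28 where it matters.

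**Figure D1:**
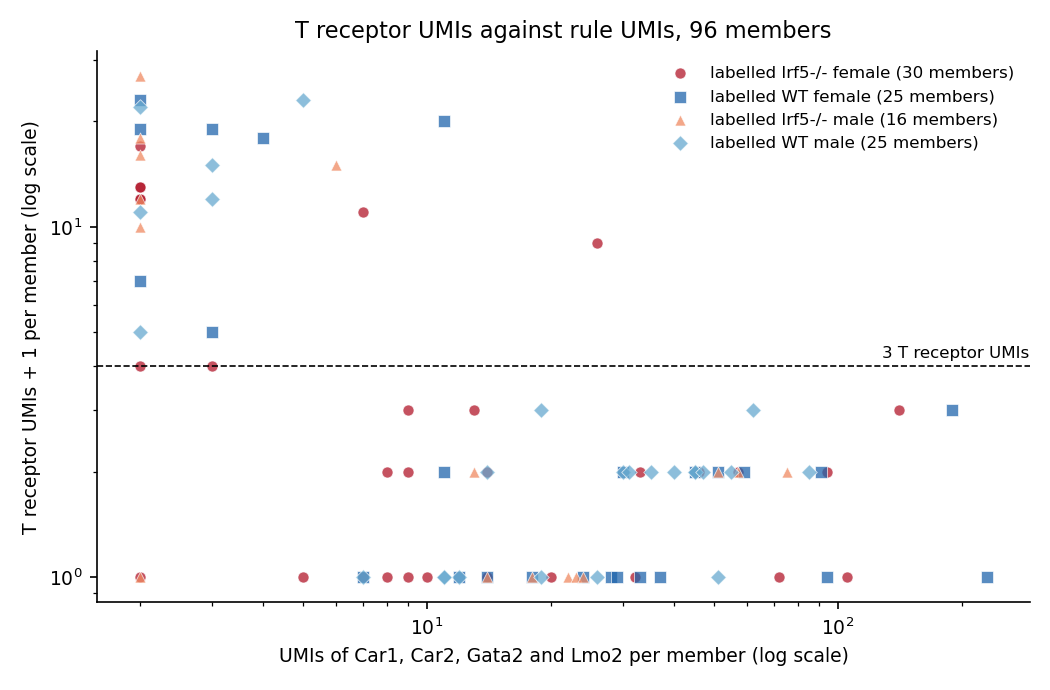
Each point is 1 of the 96 members, by its summed UMIs of the 4 rule genes (x, log scale) and its T receptor UMIs plus 1 (y, log scale), with symbol and colour for the library. The points above the dashed line are the 28 members with 3 or more T receptor UMIs, most of them at 2 or 3 rule UMIs, and members with 20 or more rule UMIs lie below it except 1.

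The members with and without T receptor UMIs separated along the number of rule UMIs. Of the 19 members with exactly 2 rule UMIs, 17 had 3 or more T receptor UMIs, as had 5 of 5 with 3. The count was 4 of 13 among members with 4 to 9 rule UMIs, 1 of 18 with 10 to 19, and 1 of 41 with 20 or more. Just outside the rule, 106 of the 116 cells with 1 rule UMI and at most 1 Cd3e and Cd3g UMI had 3 or more T receptor UMIs, and so had 11 of 11 cells with 2 or more rule UMIs and exactly 2 Cd3e and Cd3g UMIs. The 24 members in which all 4 rule genes were seen held 0 such cells. Scores for doublets, droplets with more than 1 cell, removed 0 of the 96 members.

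Members were deeper than other cells, with a median of 12229.5 UMIs (2321 to 59035) against 6735, so shares of cells were also taken after thinning every cell to 2000 UMIs. The 96 members held 1350801 UMIs in all, 355540, 441968, 173992 and 379301 by library. The 43 barcode sequences found in more than 1 library included 0 members. Xist, the long RNA of the silenced X chromosome, stood at 1910 and 1803 CPM in members of the female libraries and at 0 UMIs in members of both male libraries. Irf5, the targeted gene, went against the labels: in other cells it stood at 8.63 and 9.08 CPM in the libraries labelled Irf5-/- and at 0.962 and 1.17 CPM in the libraries labelled WT. In members it gave 1, 0, 1 and 1 UMIs by library, and a difference was not detectable at this depth. Whether a 3′ tag lies outside the changed part of the gene, or another cause holds, was not tested, so groups are named only by their labels.

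The rule genes were seen in every library. Car2 (chr3:14886273-14900770, GRCm38) stood at 923, 1303, 713 and 709 CPM in members and was found in 90 of them. Car1, its neighbour (chr3:14766216-14808368), stood at 807, 599.6, 459.8 and 258 CPM and was found in 35. Gata2 (chr6:88193891-88207032) stood at 158, 181, 351 and 301 CPM in 50 members, and Lmo2, the bridging protein of the GATA complex (chr2:103957986-103981878), at 239, 249, 287 and 477 CPM in 64. Car1 was highest in the female library labelled Irf5-/- and lowest in the male library labelled WT, and Lmo2 was highest in that male library. Gata2 was highest in the male library labelled Irf5-/-, where members rich in mast cell and basophil UMIs held 14 and 17 of its UMIs. Pooled other cells had 0.643 CPM of Car1, 3.78 of Car2, 0.0909 of Gata2 and 0.357 of Lmo2. After thinning, 64.6% of members and 0.774% of other cells had a Car2 UMI, and 25.0% and 0% had a Gata2 UMI.

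Across the transcriptome, 8497 genes reached 10 CPM in members or other cells. Of these, 1780 (20.9%) were at least 2-fold higher in pooled members with the same direction in all 4 libraries, and 727 (8.56%) were lower by the same measure. Thinning to equal depth left 606 higher and 655 lower. The median log2 ratio over all tested genes, on the scale of CPM plus 1, was 0.17. Outside the rule, the 20 highest ratios among genes with at least 50 CPM in members and higher in all 4 libraries included those of Hbb-bs, Hba-a1, Hba-a2, Hbb-bt, Ifitm1, Serpina3g, Muc13, Cbfa2t3, Scin, Adgrg1, Mef2c, Bcl11a, Cd63, Nfe2, Gm15915, Angpt1, Plac8, Tspo2 and Tmcc2. The interferon-induced membrane gene Ifitm1 stood at 883, 669.7, 1229.9 and 1352 CPM against 1.59 pooled in other cells. Serpina3g, a serine protease inhibitor gene, stood at 1980.1, 1118, 868 and 2104 CPM against 6.22. Ifitm1 was found in 47 members and Serpina3g in 62, but in the male library labelled Irf5-/- 2 members held 72 and 100 of the 214 Ifitm1 UMIs.

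**Figure D2:**
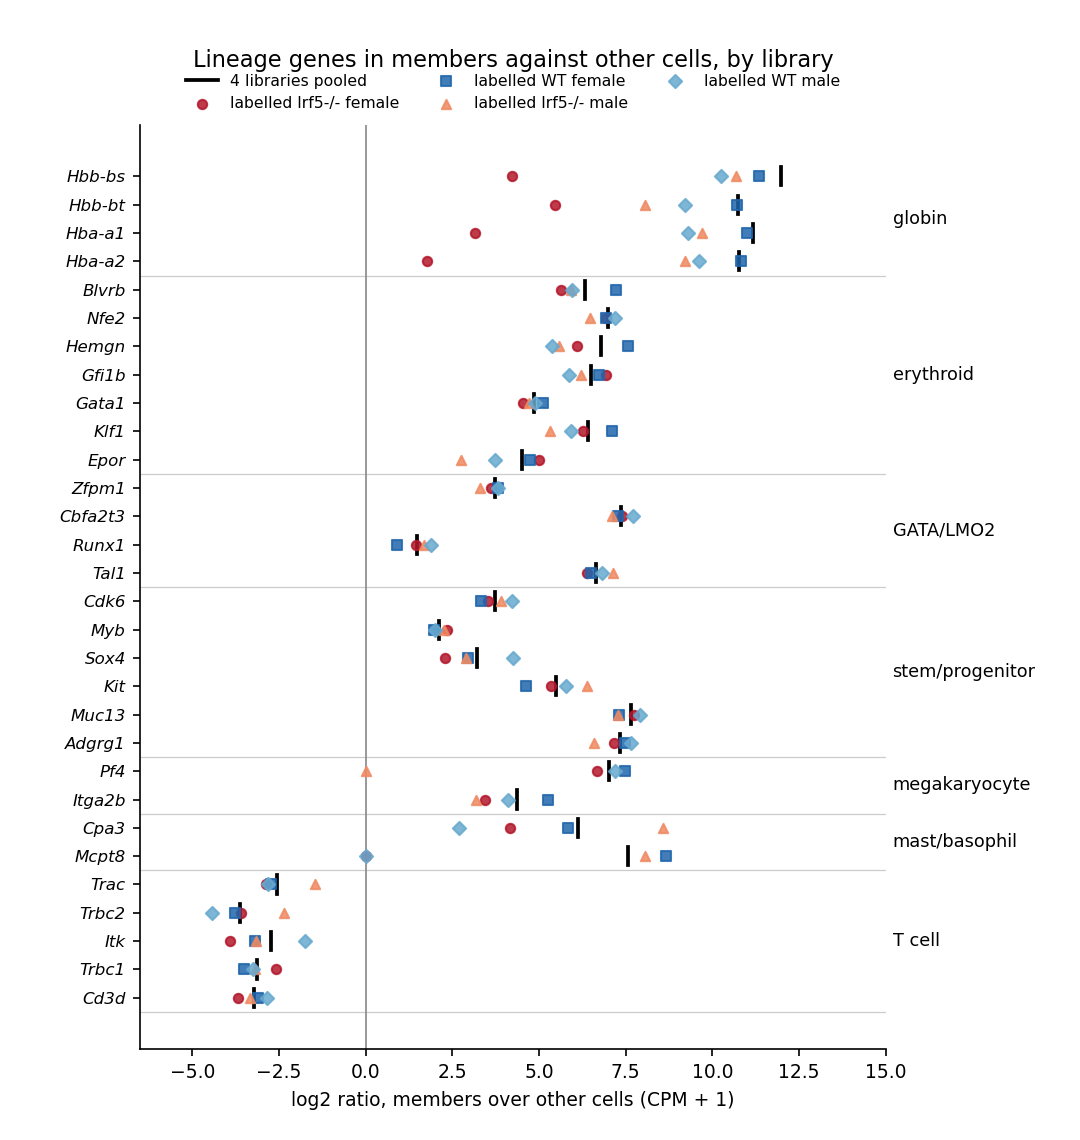
For each gene (rows, grouped by list) the x axis gives the log2 ratio of members over other cells on the scale of CPM plus 1, with 1 symbol per library and a black bar for the 4 libraries pooled. GATA complex and progenitor genes lie close together across libraries, while globin genes range widely (Hbb-bs at 19.7 to 25083 CPM in members) and T cell genes lie below 0 in all 4 libraries. A pooled bar can lie outside the symbols because libraries enter it with unequal UMIs.

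Globin RNA was concentrated in few members. Hbb-bs (chr7:103826534-103828096) stood at 19.7, 25083, 2213 and 1656 CPM, and Hbb-bt, the other adult beta globin (chr7:103812524-103813996), at 53.4, 7062, 328 and 604 CPM. The female library labelled WT was highest and the female library labelled Irf5-/- lowest for both. Pooled, the values were 8962 against 1.21 CPM in other cells for Hbb-bs, and 2536 against 0.490 for Hbb-bt. Just 6 members, 0, 4, 1 and 1 by library, each had 500 or more globin UMIs, and together they held 99.3% of the 23984 globin UMIs in members. Without these 6, the log2 ratio of Hbb-bs went from 11.99 to 4.38 and that of Hbb-bt from 10.73 to 5.33. All 4 adult globin genes were higher and the 3 embryonic ones, Hba-x, Hbb-y and Hbb-bh1, had 0 UMIs. Reads of the near-identical pairs Hba-a1 and Hba-a2, and Hbb-bs and Hbb-bt, can be split between the copies in counting, so single values of these genes are uncertain.

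Of 27 erythroid list genes outside the rule, 25 were tested, 19 were higher and 0 lower, with a median log2 ratio of 5.50. Just 2 of the 25 reached 10 CPM in other cells, so the rest were tested only through their level in members and could hardly be lower. The same holds for many tested genes of the other lists, among them stem and megakaryocyte, where 4 and 1 genes reached 10 CPM in other cells, so such counts describe the genes that passed. Of all tested genes 20.9% were higher and 8.56% lower, to be read beside the count of each list. Without the 6 globin-rich members the erythroid median was 3.73. Klf1, the erythroid Kruppel-like factor, stood at 75.9, 147, 46.0 and 63.3 CPM against 0.0839 in other cells, in 35 members. Gata1 stood at 101, 113, 86.2 and 84.4 CPM against 2.43, in 48 members. Gata1 was even across libraries, and Nfe2, a factor of erythroid and megakaryocyte cells, stood at 143, 145, 97.7 and 174 CPM. Klf1 was highest in the female library labelled WT, where globin-rich members held most of its UMIs (8, 12 and 20). Epor stood at 33.8, 29.4, 5.75 and 13.2 CPM, lowest in the male library labelled Irf5-/-. Slc4a1, of later stages, was uneven, at 0, 217, 92.0 and 84.4 CPM in just 6 members. Tfrc, the transferrin receptor of iron uptake, went the other way, at 162 CPM in members and 268 in other cells, but at 1095 CPM in the 6 globin-rich members, which held 119 of its UMIs.

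Of 17 heme and iron genes tested, 11 were higher and 0 lower, with a median log2 ratio of 2.21, and 7 of the 17 reached 10 CPM in other cells. Fech, the enzyme that inserts iron into heme, stood at 30.9, 147, 86.2 and 47.5 CPM against 4.49 in other cells, and the ferritin light chain Ftl1 at 2475, 2577, 2696 and 2694 CPM against 559. Ftl1 differed little between libraries, while Fech was highest in the female library labelled WT, which held 4 of the 6 globin-rich members. Alas2 was at 0 in the female library labelled Irf5-/- and had 52 UMIs over 7 members in all.

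The GATA and LMO2 complex list and the stem and progenitor list share Tal1, Erg and Lyl1. In the complex list 10 of 11 tested genes outside the rule were higher and 0 lower, with a median log2 ratio of 3.72. Tal1, a founding factor of blood formation, stood at 90, 95, 155 and 116 CPM against 0.0769 in other cells, in 51 members. Zfpm1, the GATA cofactor FOG1, stood at 239, 276, 189.7 and 256 CPM against 18.0, and the corepressor Cbfa2t3 at 295, 163, 201 and 322 CPM against 0.518. In the stem and progenitor list 13 of 14 were higher and 0 lower, with a median of 5.28. Kit, the stem cell factor receptor, stood at 259, 156, 535 and 269 CPM against 4.92, and the cell cycle kinase Cdk6 at 866, 645, 919.6 and 965 CPM against 61.1. In the male library labelled Irf5-/-, members rich in mast cell and basophil UMIs held 23 and 32 of the 93 Kit UMIs. Adgrg1, the adhesion receptor also called GPR56, was seen in 53 members and 0.0947% of other cells. Cd34 was thin, with a UMI in 12 members, and the lymphoid-primed progenitor receptor Flt3 had 0 UMIs in members.

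Among cytokine receptors, 5 of 15 tested genes were higher and 4 lower, where 20.9% and 8.56% of all tested genes were. The higher ones were Kit, Epor and the receptor chains for IL-3, GM-CSF and IL-5: Csf2rb stood at 121, 109, 287 and 214 CPM against 0.490, with Csf2rb2 and Csf2ra also higher. Members rich in mast cell and basophil UMIs held most Csf2rb UMIs of the male library labelled Irf5-/- (16 and 22). The lower ones, Il2ra, Il4ra, Il7r and Il6st, bind T cell cytokines among others. In the list for stress erythropoiesis, 2 of 7 tested genes were higher, Zfp36l2 and the BMP receptor Bmpr2, 1 was lower, Smad1, counts near the shares of all tested genes (20.9% higher and 8.56% lower). The ligand Bmp4 had 0 UMIs in members and other cells alike. Zfp36l2, an RNA-binding protein that keeps early erythroid progenitors renewing, stood at 548, 274, 385 and 627 CPM against 105.

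The members were not of 1 lineage. They were divided, after the cells were seen, into disjoint sets by UMI counts, beginning with the 28 that carry T receptor UMIs and the 6 with 500 or more globin UMIs. The next 28 had 3 or more Car1 UMIs (10, 7, 5 and 6 by library), after which 3 had 50 or more mast cell and basophil UMIs and 2 had 50 or more neutrophil and monocyte UMIs. Of those left, 16 had 3 or more UMIs of megakaryocyte genes (4, 5, 1 and 6) and 13 had none of these. The 3 with mast cell and basophil UMIs also had 3 or 4 megakaryocyte UMIs each. Because counts drew these lines, the genes that drew them are given only to describe the sets, and cells near a line could fall on either side.

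**Figure D3:**
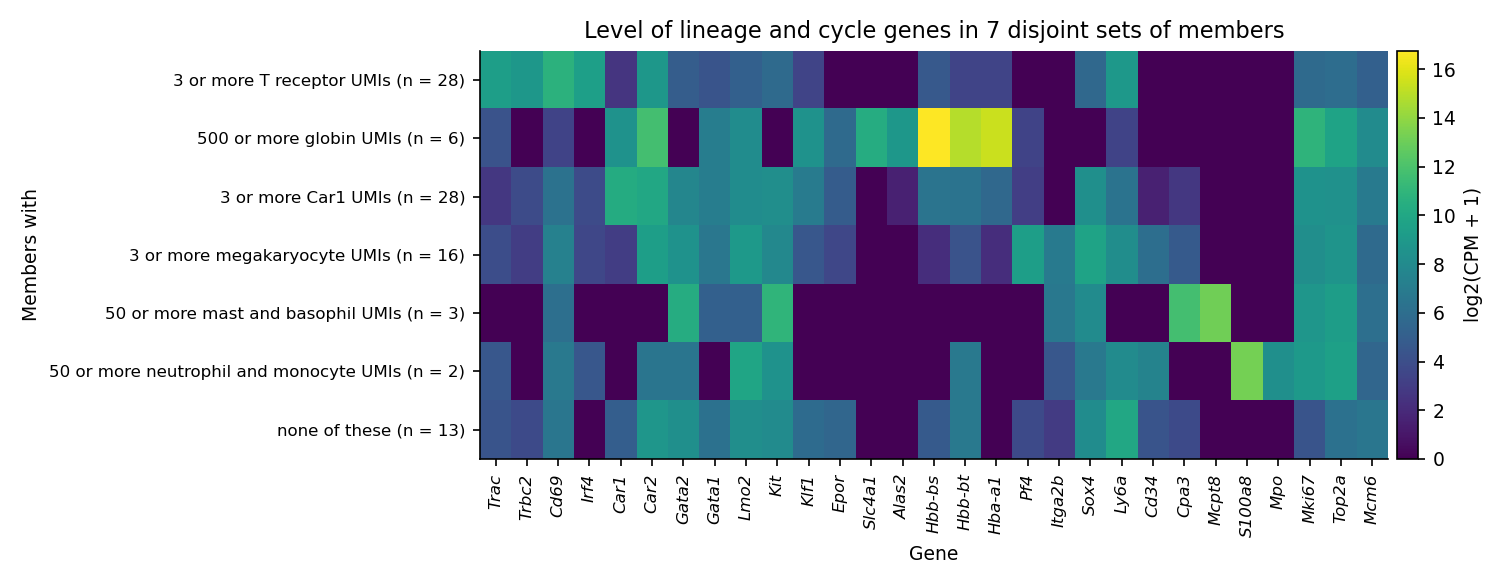
Rows are the 7 disjoint sets of members with the number of cells in each, columns are genes, and colour is log2 of CPM plus 1 over the summed UMIs of the set. Globin, Slc4a1 and Alas2 are brightest in the 6 members with 500 or more globin UMIs, where Gata2 and Kit are at 0, and Trac and Trbc2 are brightest in the 28 members with T receptor UMIs.

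Gata2, a rule gene, and Gata1 and Kit are given for the Car1 set and the globin-rich set as a description. In the 28 members with 3 or more Car1 UMIs, Gata2 stood at 209.7 CPM, Kit at 311 and Gata1 at 139. In the 6 globin-rich members, Gata2 and Kit each had 0 of 108666 UMIs, where a limit of 3 counts is 27.6 CPM, while Gata1 stood at 138 CPM (95% exact Poisson interval 77.3 to 228) and Klf1 at 368. Plac8, at 3682 CPM in the Car1 set, also had 0 UMIs in the globin-rich set. Slc4a1 was seen in 6 of 6 globin-rich members and in 0 others, and Alas2 in 6 of 6 and 1 other. Intervals and limits cover counting error only, and the 6 cells came mostly from 1 library.

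The 16 members with megakaryocyte UMIs carried Pf4, platelet factor 4, at 679.9 CPM (interval 586 to 785), and Itga2b, the platelet integrin chain, at 113 CPM. They also carried Gata2 at 369 CPM, Meis1 at 216 and Sox4 at 826, and Meis1 was seen in 15 of the 16. Pf4 was uneven, with 60, 38, 23 and 20 of the 186 UMIs in 4 cells and none in 2, and 1 cell held 15 of the 31 Itga2b UMIs. Over all members, 8 of 15 megakaryocyte genes were tested and 4 were higher, where 20.9% of all tested genes were. Pf4 was at 132, 201, 0 and 150.3 CPM, so it was not seen in the male library labelled Irf5-/-.

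The smallest sets each rested on few cells. In the 3 members with mast cell and basophil UMIs, the mast cell carboxypeptidase Cpa3 stood at 3404 CPM, Gata2 at 1307 and Kit at 1960.0, with Car2 at 0. The basophil protease Mcpt8 was seen in 2 of the 3, 1 in the female library labelled WT and 1 in the male library labelled Irf5-/-. Of the 2 members with neutrophil and monocyte UMIs, 1 held every S100a8 and S100a9 UMI of the members, and the other every UMI of Mpo, the myeloperoxidase of granulocyte precursors. Elane, neutrophil elastase, had 0 UMIs. The 13 members in none of these sets carried Ly6a, the stem cell antigen Sca-1, at 1045 CPM and Serpina3g at 3147. Neither was particular to them, with Ly6a at 497 CPM in the 28 members with T receptor UMIs and Serpina3g at 2815 in the megakaryocyte set. Serpina3g was seen in 13 of the 13, whereas 6 had no Ly6a UMI and 4 cells with 66, 40, 39 and 13 UMIs held most of the 164.

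Markers of other spleen cells varied in members. The macrophage genes C1qa, C1qb, C1qc, Cd5l and Vcam1 and the endothelial genes Cdh5, Emcn and Stab2 had 0 UMIs, and 2 tested genes of each of those lists gave 0 higher and 0 lower. Other genes of the lists were seen at low counts, with the endothelial receptor genes Tek at 6 UMIs in 6 members, Tie1 at 5 in 5 and Kdr at 5 in 3, and the macrophage receptor gene Cd163 at 2 UMIs. Over whole lists, 13 of 96 members had 3 or more endothelial UMIs against 514 of 19004 other cells, 6 had 3 or more macrophage UMIs against 23, and 28 had 3 or more natural killer and innate lymphoid UMIs against 2831. At equal depth the endothelial share turned, at 0% of members and 0.216% of other cells, and the other shares were 1.04% against 0.0210% (macrophage) and 9.38% against 6.23% (natural killer and innate lymphoid). Of 4 tested B cell genes 1 was higher, Cd79b at 11.8 CPM, a count near the 20.9% of all tested genes. The B cell median log2 ratio was -2.06 pooled but -4.44, 0.75, -0.89 and 0.89 by library. Of 5 dendritic cell genes 1 was lower, Irf8, and 3 were higher, among them Cd74 and H2-Ab1 of antigen presentation at 229 and 115 CPM, and Siglech, Clec9a and Itgax had 0 UMIs. Of 5 tested natural killer and innate lymphoid genes 2 were lower, Il7r and Rora, and 3 were higher, among them Nkg7 at 64.4 CPM in 32 members, and Ncr1 had 0 UMIs.

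T cell genes were lower in members: 15 of 15 tested genes outside the rule, with a median log2 ratio of -2.73. Trac, the T cell receptor alpha constant gene, stood at 84.4, 95, 241 and 94.9 CPM against 656 in other cells, and Trbc2 at 78.8, 61.1, 189.7 and 44.8 CPM against 967. Both were highest in the male library labelled Irf5-/-, where 6 of 16 members carried T receptor UMIs. Without the 28 such members, which were set apart by these genes so that a lower level was fixed, Trac was at 11.3 CPM and Trbc2 at 9.59, and the median was -5.55. Of 17 activation genes tested 11 were lower, with Cd69 at 338 against 1403 CPM and 95 without the 28, and Irf4 at 114 against 667 CPM and 9.59 without the 28. Free RNA in droplets under 200 UMIs held 429 CPM of Trac and 775 of Trbc2, and its part in the low T cell values of members was not tested.

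Cell cycle genes were compared with the same caveat on the filter. In the G2/M list 29 of 34 tested genes were higher and 0 lower, with a median log2 ratio of 4.25, and in the G1/S list 17 of 30 and 0, with 2.19. Of the tested genes, 3 and 14 reached 10 CPM in other cells, so the rest could hardly be lower. Mki67, the proliferation marker Ki-67 (chr7:135689784-135716361), stood at 326, 778, 172 and 137 CPM against 4.46, in 32 members. Top2a, the topoisomerase of dividing cells, stood at 408, 577, 121 and 132 CPM against 7.97. Both were higher in both female libraries than in both male ones, but few members held most Mki67 UMIs. In the female library labelled WT these were members with 74, 72, 67 and 61, and in the one labelled Irf5-/- with 27, 26, 25 and 19. In the male library labelled Irf5-/- a single member held 25. Cks2, a partner of the cyclin-dependent kinases, was even, at 363, 378, 356 and 316 CPM. Pcna, the replication clamp, was at 178 against 124 CPM pooled and did not reach 2-fold. It was lower in members of both male libraries, at 69.0 against 122 CPM (labelled Irf5-/-) and 121 against 126 (labelled WT). Ung, which removes uracil from DNA, was at 17.8 against 31.2 CPM. Cyclin D2 was lower, at 362 against 877 CPM, and cyclin D3 was higher, at 104 against 50.2 CPM.

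After thinning to 2000 UMIs, 30 of 96 members (31.3%, 95% exact binomial interval 22.2 to 41.5) had 3 or more G2/M UMIs against 6.36% of other cells (6.02 to 6.72). By library the share was 33.3%, 40%, 25% and 24% of members, against 6.28%, 4.58%, 7.31% and 5.82% of other cells. The share in members was above that in other cells in all 4 libraries. For G1/S the share was 25 of 96 (26.0%, 17.6 to 36.0) against 7.44%, and by library 40%, 32%, 12.5% and 12%, with both male values resting on 3 or fewer members. Both lists were seen in 17 of 96 members and in 0.647% of other cells. Without the members that carry T receptor UMIs, 28 of 68 (41.2%) had G2/M UMIs and 22 of 68 (32.4%) G1/S UMIs, and in the 28 left out the counts were 2 and 3. By set, 5 of 6 globin-rich members, 13 of 28 in the Car1 set, 5 of 16 with megakaryocyte UMIs and 2 of 13 in none of the sets had G2/M UMIs. Counts of UMIs alone do not place a cell in a phase.

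**Figure D4:**
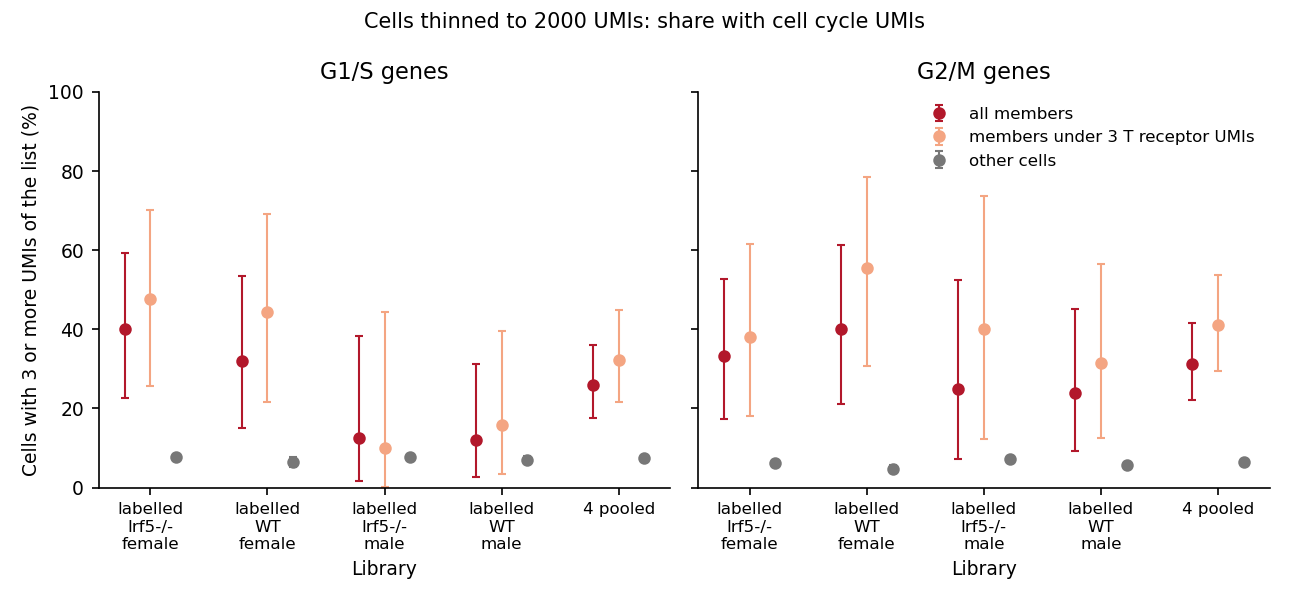
Points give the percent of cells, thinned to 2000 UMIs, with 3 or more UMIs of G1/S genes (left) and G2/M genes (right) in each library and in the 4 pooled, with 95% exact binomial intervals. For G2/M all members lie at 24 to 40% and other cells at 4.58 to 7.31%, and the interval of the male library labelled Irf5-/- reaches the value of its other cells, as do both male intervals for G1/S.

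Members made up 0.486%, 1.38%, 0.245% and 0.548% of kept cells by library (30 of 6178, 25 of 1814, 16 of 6543 and 25 of 4565). The libraries labelled Irf5-/- averaged 0.365% ± 0.170 and those labelled WT 0.963% ± 0.587 (SD, n = 2 each). The difference of -0.598 percentage points had a two-sided exact permutation p of 0.333, the smallest that 2 against 2 libraries can give. It was -0.893 points between the female libraries and -0.303 between the male ones, and without the female library labelled WT, which held the fewest kept cells, it was -0.183, and without the male one -1.01. The number of members, 16 to 30, varied less between libraries than the number of kept cells, 1814 to 6543. Members under 3 T receptor UMIs gave 0.246% ± 0.132 against 0.704% ± 0.407 (exact permutation p = 0.333). In such shares, fewer progenitors and more T cells cannot be told apart.

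Within members, 0 of 5257 genes tested (0%) differed between the labels at an adjusted p under 0.05 by edgeR's quasi-likelihood test with sex as a covariate, and 167 had an unadjusted p under 0.05. DESeq2 called 1, the chemokine gene Ccl4. Sp110, a nuclear body gene of chromosome 1 (chr1:85576899-85598817), had the lowest p. It gave 0, 62, 0 and 76 UMIs in members, or 0, 140.3, 0 and 200.4 CPM, with UMIs only in the libraries labelled WT. Against the limit of 3 counts over both libraries labelled Irf5-/-, it was at least 29.7-fold lower there, with an edgeR adjusted p of 0.318. In other cells it stood at 0.355, 102, 0.506 and 83.9 CPM, with the same split by label. Its neighbour Sp140 (chr1:85600378-85645037) gave 3, 33, 0 and 30 UMIs in members, 13.5-fold higher in libraries labelled WT (95% exact counting interval 4.43 to 67.4), with an adjusted p of 1.00. Its adjusted p was 1.8e-05 with no filter on low counts, 9.4e-04 without the female library labelled WT and 5.3e-04 without the male one. It was 0.593 and 0.123 without the female and the male library labelled Irf5-/-, and between 0.103 and 1.00 in the other settings run. The adjusted p of Sp110 ran from 1.2e-18 with no filter to 1.00 by DESeq2, and was 7.8e-04 without the members that carry T receptor UMIs. It was 0.0437 without the sex term and 0.0427 without the 6 globin-rich members. The count of genes called between labels turned on single libraries, with 32 called without the female library labelled WT, 114 without the male one, 11 without the male library labelled Irf5-/- and 0 without the female one.

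**Figure D5:**
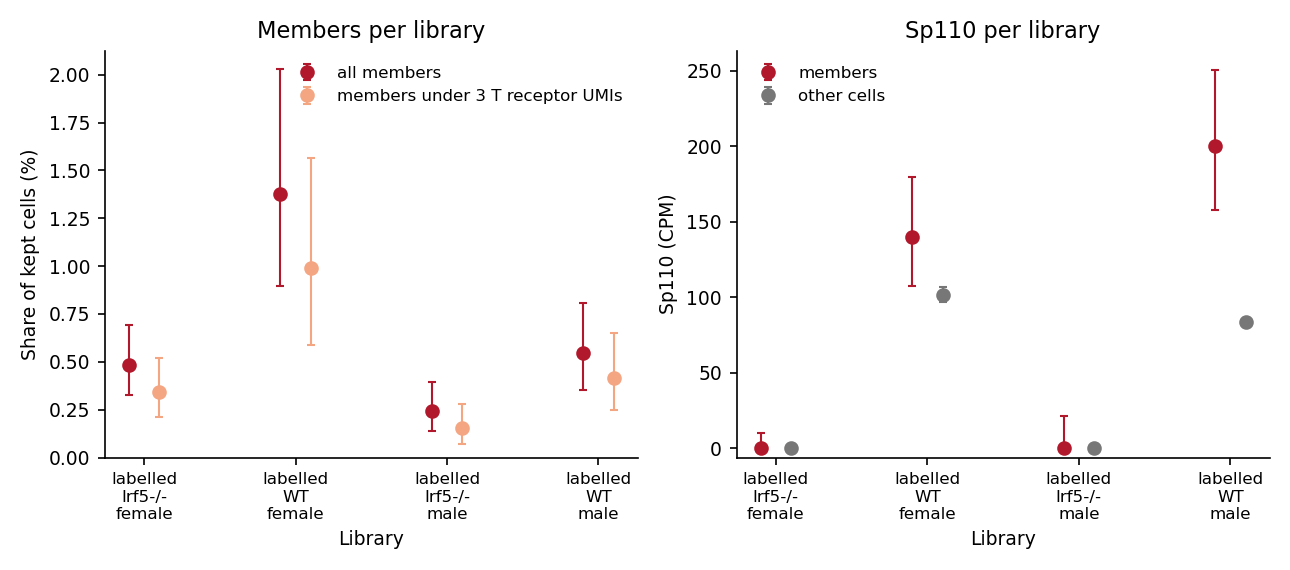
Left, members as a percent of kept cells in each library with 95% exact binomial intervals, for all members and for those under 3 T receptor UMIs. Right, Sp110 in CPM in members and other cells of each library with 95% exact Poisson intervals. The female library labelled WT has the highest share, 1.38%, and Sp110 is at 0 in members of both libraries labelled Irf5-/-.

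In the interferon list, which holds Sp110 and Irf5, 3 of 15 tested genes were higher in members than in other cells and 1 lower, with a median log2 ratio of 0.38. These counts are near the shares of all tested genes (20.9% higher and 8.56% lower). The higher ones were Ly6e at 986 against 415 CPM, the ubiquitin-like Isg15 at 252 against 61.5, and the interferon regulator Irf7 at 65.1 against 26.0. Isg15 by library was at 354, 204, 126 and 272 CPM, with no split by label or sex. Irf8, a factor of monocyte and dendritic lineages, was lower, at 80.0 against 275 CPM, and at 16.6 CPM without the members that carry T receptor UMIs.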

How the data were processed

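For each of the 4 droplet libraries the deposited file holds raw UMI counts, whole numbers without normalization, over all barcodes. The submitters' processing notes name Cell Ranger 6.0.2 and mm10. Whether counting used strand is not given in the sources used here. Of 32285 gene identifiers, 32158 were found in GENCODE M21 on GRCm38, the source of gene coordinates. Kept cells, members and CPM are as the report defines them. The members and gene lists were chosen with earlier results of these data known, and 1 erythroid list gene, Ahsp, was not in the count files. A list gene counted as higher or lower at 2-fold on CPM plus 1, pooled and in the same direction in all 4 libraries.

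Named genes were the markers, up to 6 genes per list with the highest level or against the list's name, the 20 highest ratios from 50 CPM in members and the 5 lowest from 200 CPM in other cells with the same direction in all 4 libraries, Irf5, Sp110 and Sp140, and up to 10 genes called between labels. The 5 lowest were Trbc2, Bcl11b, Ms4a6b, Cd3d and Trbc1. Genes that hold a promoter match, describe a set, are at 0 or fall outside these limits were named after their values were seen, and a few genes within these limits are not reported here. Doublets were scored with scrublet in scanpy 1.11.5, whose own threshold marked 0.0486% of 1 library, so the top scores were removed at 0.8% per 1000 cells in an alternative. Member UMIs were summed per library and tested with edgeR 4.0.16 (TMM, filterByExpr, genotype label and sex, Benjamini-Hochberg) and DESeq2 1.42.0. On simulated data for this comparison, edgeR found 72.5% of the genes given a log2 change of 2 (4826 tested, 7.64% of calls false). It found 91.5% of those given a change of 4 (4906 tested, 9.85% of calls false). The simulation gave every gene the same spread and every library the same levels before the change. Members of mixed lineage need not meet this, so these shares do not give the power for genes with a larger spread. Alternatives were cell filters, rule thresholds, thinning, scaling, each library left out, and, added after seeing the data, leaving out members with T receptor UMIs or with 500 or more globin UMIs.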

Additional observations from a re-analysis of the deposited data

Results flagged for a closer look

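The share of members with 3 or more G2/M UMIs after thinning differed in direction between the sexes: the library labelled Irf5-/- minus the one labelled WT was -6.67 percentage points in females and 1.00 in males. The difference between these was not tested, and each share rests on 16 to 30 members. Among cells with at least 1000 but under 2000 UMIs, which no comparison used, 5 of 403 met the other criteria of the rule, and 4 of these had fewer than 3 T receptor UMIs. Droplets under 200 UMIs, which hold free RNA, carried 7708 globin UMIs, or 285 CPM, against 2.78 CPM in other cells.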

How the results depend on the processing

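Few cells and 2 libraries per label limit every value here. With 4 or more rule UMIs the T cell median was -4.27, the shares of members carrying erythroid, stem and T lists were 91.7%, 93.1% and 34.7%, and the G2/M share was 40.3%. Without members with T receptor UMIs (added after seeing the data) these were -5.55, 92.6%, 92.6%, 27.9% and 41.2%, and the megakaryocyte share was 36.8%; the main shares were 81.3%, 77.1%, 49.0%, 31.3% and 27.1%. Without globin-rich members (also added) the erythroid median was 3.73. The T cell median was -3.34 with 0 Cd3e and Cd3g UMIs, -2.37 with at most 5% mitochondrial UMIs, -1.98 with mean per-cell CPM, -3.0 with the mean of library ratios, -2.46 with a pseudocount of 10 CPM and -2.13 thinned. That pseudocount gave medians of 2.48 (erythroid) and 2.28 (G2/M). Genes lower numbered 462 with mean per-cell CPM and 474 with the pseudocount, and genes higher 606 when thinned. Thinned, the shares carrying erythroid, globin, stem, megakaryocyte, mast cell and T lists were 34.4%, 9.38%, 59.4%, 4.17%, 3.13% and 26.0%. Without thinning, G1/S and G2/M shares were 75% and 69.8%, and with 5 or more UMIs 11.5% and 20.8%. Mcpt8 reversed from 7.56 to -0.044 with at most 5% mitochondrial UMIs. Genes called between labels numbered 45 with no filter, 1 without the sex term (no replicate block), 1 without T receptor members, 1 without globin-rich members, 1 by DESeq2, and 0 to 114 with 1 library left out. The latter had no sex term and assumed that the lone library of a label varies like the pair. The cause of these changes was not tested. The labels number no replicates, and sex, as a term in the fit, pairs the female and the male libraries, so the fit without it is the one with no replicate block. Cells under 2000 UMIs could not be thinned, so that setting has no thinned share.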
